A study of Mus musculus with 4 samples.

Results

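The 34 genes described here encode ribosome assembly factors, the proteins that build ribosomal subunits in the nucleolus and finish them in the cytoplasm. They were chosen by name, as the probe sets whose gene symbol is on a list of such factors. All 34 had a probe set, among 23185 genes with a symbol on the array. All RNA came from mouse E14.5 (embryonic day) fetal liver erythroblasts, selected with magnetic beads for the surface antigen Ter119, and no strain, genotype or drug is stated. RNA bound to Cpeb4, which belongs to the proteins that recognise cytoplasmic polyadenylation elements in mRNA, was precipitated with an antibody (IP, 2 arrays, labelled as biological replicates). Rabbit IgG served as the precipitation control (1 array), and total input RNA as the starting material (1 array). The labels do not say whether the IgG and input RNA came from the same cells as either IP replicate.

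Ribosome assembly starts in the nucleolus, where precursor ribosomal RNA is folded, cut and chemically modified while ribosomal proteins join it. Small nucleolar RNPs (snoRNPs) of the box C/D class guide ribose methylation and those of the box H/ACA class guide pseudouridylation, and a large particle called the small subunit processome carries the early steps of 40S formation. In erythroblasts the demand for globin synthesis makes ribosome supply a known point of sensitivity: inherited defects of ribosome production often show first as anaemia.

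All values are deposited log2 expression values, and differences are IP minus control on that scale. The limma test covered the 13911 genes whose mean level was at least 3.844 (the 40th percentile of genes with a symbol), and all 34 assembly factors were among them. A gene is said to rise or fall only when its Benjamini-Hochberg adjusted p was below 0.05. A second count, by size, took genes that differed at least 2-fold, in 1 direction, in each of the IP replicates. The 2 IP arrays alone gave the spread, which was assumed to hold for each single control, so the p-values measure only the spread between those 2 precipitates.

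The IgG array had a narrower range of values than the others, with an SD over all probe sets of 1.74 against 2.05 to 2.13. Its 90th percentile was 7.12, against 7.85 to 8.02 on the other arrays, and the assembly factors lay above the middle of every array, from the 58.5 percentile upward on IgG and from 69.3 upward on input. Erythroid markers were high on all arrays, with medians from 11.17 to 11.36 over the 8 measured of 10 listed. Their summed log2 value was 88.52 in input, 84.10 in IgG, and 84.48 and 84.83 in the IP, and 6 of the 7 tested were below input, 3 of them at least 2-fold in both replicates. Hepatocyte markers (5 of 6 measured) had a median of 4.19 in input, near the median of 4.13 over all probe sets on that array. Megakaryocyte and neutrophil markers stood above that, with input medians of 6.57 and 6.56, and macrophage and endothelial markers below it, with 3.75 and 3.85.

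Most assembly factor mRNAs stood higher in the IP than in the IgG precipitate and at about the level of input. Against IgG, 31 of 34 had a positive mean difference, with a median of 0.68 where all tested genes had 0.08. By limma 21 rose (61.8%, against 35.0% of all tested genes), 1 fell (2.94% against 19.7%) and 12 did not pass. By size, 8 of the 34 exceeded IgG at least 2-fold in each replicate (23.5%, against 18.6% of all tested genes), and 0 were at least 2-fold lower (against 6.24%). Against input the median was -0.15, where all tested genes had -0.01, with 13 members above 0 and 20 below. There 2 rose (5.88%, against 9.38%), 4 fell (11.8%, against 13.8%) and 28 did not pass, which are shares close to or below those of all tested genes. By size, 1 member was at least 2-fold higher than input (2.94%, against 4.04%) and 0 were at least 2-fold lower (against 5.18%). In precipitated bulk RNA, fewer cells of a type and less RNA per cell cannot be told apart.

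**Figure D1:**
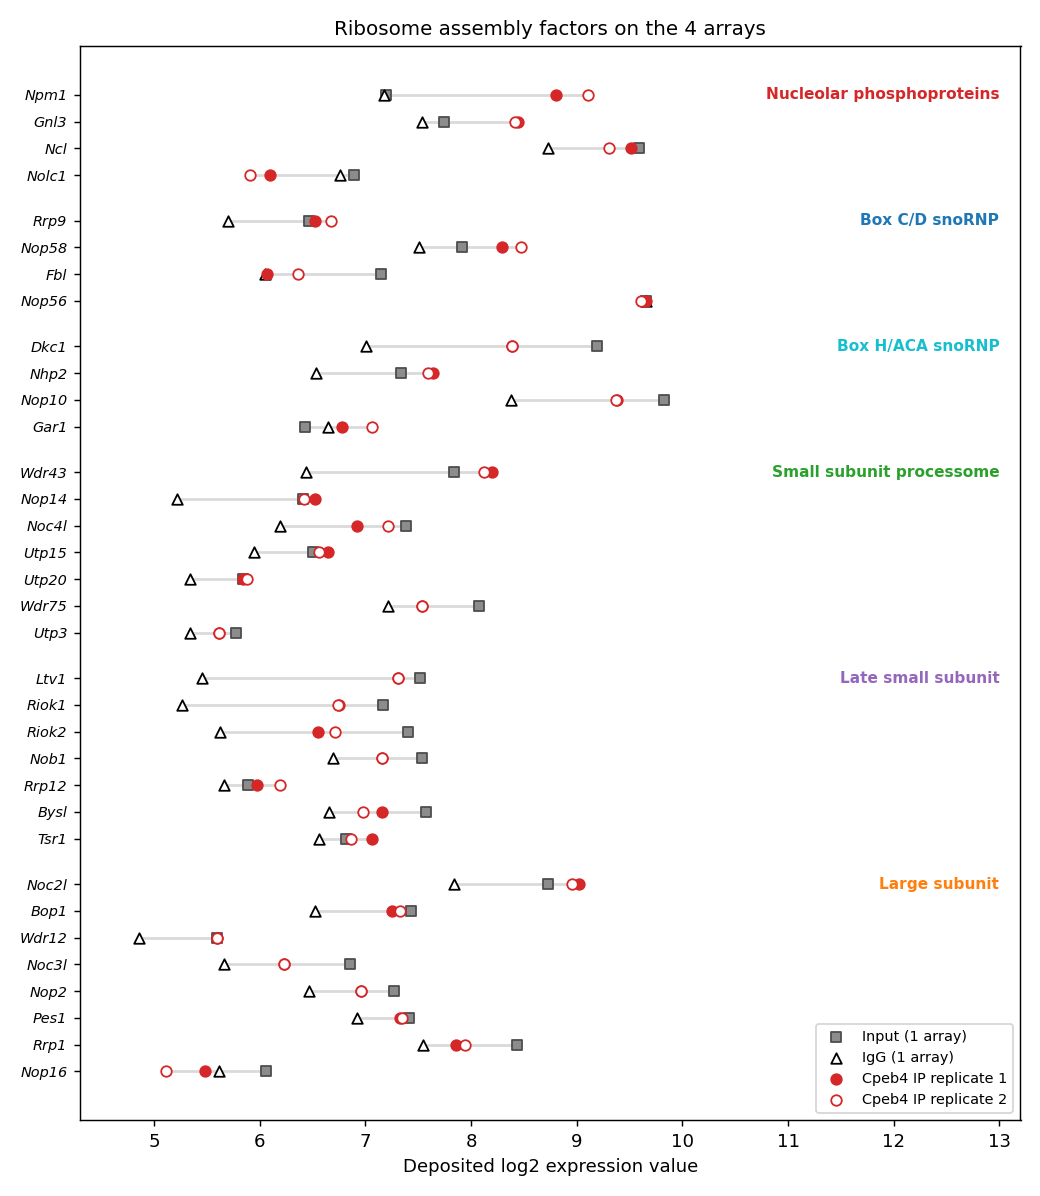
Deposited log2 expression values of the 34 assembly factors on each of the 4 arrays, grouped by role and ordered within a role by the difference from IgG. Grey squares are input, white triangles IgG, filled red circles IP replicate 1 and open red circles IP replicate 2, with 1 array each and no error bars. The IgG value lies left of input for 32 members, and Npm1 has both IP values to the right of both controls by more than 1.5.

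The study's question was which RNAs came down with Cpeb4, taken here as those that stood above both controls. By size, 1 member, Npm1, was at least 2-fold above IgG and input in both replicates (2.94%, against 2.49% of all tested genes), and 0 were at least 2-fold below both (against 0.503%). Counting differences of any size, 12 members lay above both controls in both IP replicates (35.3%, against 20.5%) and 2 below both, Nolc1 and Nop16 (5.88%, against 11.9%). As deposited, 17 members (50%, against 22.2%) lay between the controls, above IgG and below input in both replicates. These counts changed with the scaling. By size, 0 members were 2-fold above both controls after quantile normalization of the 4 arrays again (against 2.31%). Npm1 was then 0.92 above IgG in replicate 1. With arrays centred on their medians, 20 lay between (58.8%, against 38.9%). There 11 lay above both (32.4%, against 24.4%) and 1, Nolc1, below both (2.94%, against 15.2%). After quantile normalization of the 4 arrays again, 8 lay between (23.5%, against 19.7%), 10 above both (29.4%, against 24.1%) and 8 below both (23.5%, against 26.5%), which are shares near those of all tested genes. By limma, Npm1 and Gnl3 rose against both controls (5.88%, against 7.03%), Nolc1 fell against both (2.94%, against 2.07%), and Dkc1 and Riok2 rose against IgG and fell against input (5.88%, against 5.31%). These comparisons share the IP arrays.

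Among the abundant nucleolar phosphoproteins, Npm1 showed the largest difference from input of all 34 members. Npm1 (Entrez 18148), a histone and ribosomal protein chaperone that moves between nucleolus and cytoplasm, had values of 7.198 in input, 7.174 in IgG, and 8.80 and 9.11 in the IP replicates. Both IP values lay far above both controls, which were almost equal. The IP mean of 8.95 ± 0.22 (SD, n = 2) was 1.78 above IgG (SE 0.18, 3.43-fold, limma adjusted p = 0.0035) and 1.76 above input (SE 0.18, 3.38-fold, limma adjusted p = 0.0117). With genes tied on the IP arrays kept at a spread of 0 (plain eBayes), Npm1 did not pass. Its limma adjusted p was then 0.071 against IgG and 0.108 against input. It ranked 172 of 13911 by the difference from input and 905 by that from IgG. Npm1 has processed pseudogenes, and whether the probes separate them was not given in the sources used here.

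Several marker lists of other blood and liver cells stood higher in the IP than in input, while the erythroid list stood lower. For megakaryocyte markers (6 of 6 measured) the summed log2 value was 41.44 in input, 46.66 in IgG, and 52.41 and 53.09 in the IP replicates. For neutrophil markers (6 of 6) it was 38.67, 41.37, 47.89 and 47.96, and for macrophage markers (6 of 6) 24.97, 28.46, 31.94 and 32.65, in the same order. Hepatocyte markers (5 of 6) went from 20.01 in input and 23.36 in IgG to 27.91 and 28.25. Endothelial markers (4 of 4) summed to 16.48 and 16.94 in input and IgG and to 18.38 and 18.37 in the IP, but 1 of the 4 rose against input, by 1.75, and their median difference was 0.10. No marker value was 0, and no detection calls were given. Their part in the position of Npm1 was not tested.

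Gnl3 (Entrez 30877), nucleostemin, is a nucleolar GTP-binding protein of proliferating cells. It had values of 7.75 in input and 7.53 in IgG, and 8.44 and 8.42 in the IP. Again both IP values lay above both controls. Gnl3 rose by 0.90 over IgG (SE 0.12, limma adjusted p = 0.0063) and by 0.68 over input (limma adjusted p = 0.0274), which is 1.61-fold. After quantile normalization of the arrays again, its difference from IgG was 0.17 (limma adjusted p = 0.235) and that from input 0.84.

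Ncl and Nolc1 did not share this position. Ncl (Entrez 17975), nucleolin, a major RNA-binding protein of the nucleolus, had values of 9.59, 8.73, 9.52 and 9.31 for input, IgG and IP replicates 1 and 2. It rose by 0.69 over IgG (limma adjusted p = 0.0212) and differed by -0.18 from input (limma adjusted p = 0.509). Nolc1 (Entrez 70769), a phosphoprotein that accompanies snoRNPs between nucleolus and Cajal bodies, went the other way, with 6.89 in input, 6.76 in IgG, and 6.10 and 5.90 in the IP. Nolc1 fell by 0.76 on the log2 scale against IgG (SE 0.14, limma adjusted p = 0.0157) and by 0.89 against input (limma adjusted p = 0.0239). As deposited, it was the 1 member that fell against IgG. With plain eBayes Nolc1 passed against neither IgG nor input (limma adjusted p = 0.106 and 0.132). It also did not pass against IgG with arrays centred on their medians (limma adjusted p = 0.0808). Against input it did not pass after quantile normalization again (limma adjusted p = 0.0608).

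The 4 proteins of box C/D snoRNPs differed among themselves. Nop56 and Nop58 are paralogous scaffold proteins of the same particle, and Fbl, fibrillarin, is its methyltransferase. Nop56 (Entrez 67134) was the most even member, at 9.66 in input, 9.66 in IgG, and 9.66 and 9.61 in the IP (differences of -0.02 from each control). Nop58 (Entrez 55989) had 7.91, 7.51, 8.29 and 8.47 in the same order, so that both IP values were above both controls. It rose by 0.88 over IgG (SE 0.14, limma adjusted p = 0.0102) and was 0.47 above input without passing (limma adjusted p = 0.091). Fbl (Entrez 14113) had 7.14 in input and 6.05 in IgG, with 6.07 and 6.36 in the IP, close to IgG. It fell by 0.93 on the log2 scale against input (1.90-fold lower, SE 0.17, limma adjusted p = 0.0312), the largest such difference among the members, and was 0.16 above IgG (limma adjusted p = 0.483). Against input Fbl did not pass after quantile normalization again (limma adjusted p = 0.0601) or with plain eBayes (limma adjusted p = 0.185). Rrp9, a WD-repeat protein of the U3 particle, had 6.47, 5.70, 6.53 and 6.68, and it rose by 0.91 over IgG and differed by 0.13 from input.

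The H/ACA proteins had the highest median difference from IgG of any role, 1.04 over 4 genes, with -0.08 against input. Dkc1 (Entrez 245474), dyskerin, the pseudouridine synthase, was at 9.19 in input, 7.004 in IgG and 8.39 on both IP arrays. Its IP level thus lay between the controls. Dkc1 rose by 1.38 over IgG (2.61-fold, SE 0.13, limma adjusted p = 0.007) and fell by 0.80 on the log2 scale against input (limma adjusted p = 0.0424). The adjusted p against input was 0.0507 with no filter on level, 0.0797 after quantile normalization again and 0.0599 with arrays centred on their medians.

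The other H/ACA core proteins followed 3 different courses. Nop10, the smallest core protein, had 9.82 in input, 8.38 in IgG, and 9.38 and 9.37 in the IP. It rose by 1.00 over IgG, was below 2-fold in 1 replicate (0.99), and was -0.45 from input without passing (limma adjusted p = 0.0666). Nhp2 had 7.34, 6.53, 7.64 and 7.60, and rose by 1.09 over IgG, with 0.28 against input (limma adjusted p = 0.184). Gar1 (Entrez 68147) was the 1 member higher in IgG than in input, with 6.43 in input, 6.65 in IgG, and 6.78 and 7.07 in the IP. Its differences of 0.28 from IgG and 0.49 from input did not pass (limma adjusted p = 0.239 and 0.119).

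All 7 members of the small subunit processome were lower in IgG than in input (against 54.7% of all tested genes). In the IP 5 rose against IgG (71.4%, against 35.0%). The share among genes at or above the 60th percentile of level was 52.2%. Against input limma called 0 of the 7, where 9.38% of all tested genes rose and 13.8% fell. The differences ran from -0.54 to 0.32, and 1 of the 7, Wdr75, was below 0.05 before adjustment. Wdr43 (Entrez 72515), the mouse counterpart of yeast Utp5, had 7.84 in input and 6.44 in IgG, and 8.20 and 8.12 in the IP. It rose by 1.72 over IgG (3.30-fold, SE 0.12, limma adjusted p = 0.0021) and was 0.32 above input (limma adjusted p = 0.151). Nop14, a scaffold of the processome, had 6.41, 5.22, 6.52 and 6.42 for input, IgG and IP replicates 1 and 2, and rose by 1.25 over IgG with 0.06 against input. Noc4l, its binding partner, had 7.383, 6.195, 6.923 and 7.211, and rose by 0.87 over IgG.

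Of the other processome members, Utp15 rose by 0.66 and Utp20 by 0.52 over IgG, with differences of 0.10 and 0.02 from input. Wdr75 was at 7.53 on both IP arrays, between 7.21 in IgG and 8.07 in input, and did not pass against IgG (0.32, limma adjusted p = 0.14) or input (-0.54, limma adjusted p = 0.0877). Utp3, also at 1 value on both IP arrays (5.62), lay between 5.34 and 5.77 and was 0.28 above IgG (limma adjusted p = 0.183).

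Factors of late 40S maturation held the largest difference from IgG. Ltv1 (Entrez 353258), a factor that leaves the pre-40S particle after export to the cytoplasm, had 7.52 in input, 5.45 in IgG and 7.31 on both IP arrays. The IP level was near input, and the IgG level stood apart from the other 3 arrays. Ltv1 rose by 1.86 over IgG (3.64-fold, SE 0.13, limma adjusted p = 0.0042) and differed by -0.20 from input (limma adjusted p = 0.428). Input was itself 4.18-fold above IgG.

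The atypical kinases Riok1 and Riok2, which act on the late pre-40S particle, had the same order of arrays. Riok1 (Entrez 71340) was at 7.16 in input, 5.26 in IgG, and 6.75 and 6.74 in the IP. It rose by 1.48 over IgG (2.79-fold, SE 0.12, limma adjusted p = 0.0024) and differed by -0.42 from input (limma adjusted p = 0.077). Riok2 (Entrez 67045) was at 7.40, 5.62, 6.55 and 6.71, rose by 1.01 over IgG (SE 0.14, limma adjusted p = 0.0067) and fell by 0.77 on the log2 scale against input (limma adjusted p = 0.0286). With plain eBayes Riok2 passed against neither IgG nor input (limma adjusted p = 0.0644 and 0.125). Against input it also did not pass after quantile normalization again (limma adjusted p = 0.0598). Its first IP replicate was 0.93 above IgG, so it missed the 2-fold count.

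The rest of the late 40S group differed less from IgG. Nob1, the endonuclease that makes the last cut of the 18S precursor, had 7.53, 6.69, 7.15 and 7.15, a difference of 0.46 from IgG that did not pass (limma adjusted p = 0.0675). Bysl, Tsr1 and Rrp12 differed by 0.41, 0.40 and 0.42 from IgG (limma adjusted p = 0.0713, 0.0787 and 0.0802) and by -0.51, 0.14 and 0.19 from input, none past the test. Rrp12, at 5.89 in input and 5.67 in IgG, had both IP values (5.975 and 6.197) above the controls.

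Among 8 factors of the large subunit, 5 rose against IgG (62.5%, against 35.0% of all tested genes). The share among genes at or above the 60th percentile of level was 52.2%. Against input 0 passed, where 9.38% of all tested genes rose and 13.8% fell. Differences from input ran from -0.76 to 0.25, and 3 (Rrp1, Nop16 and Noc3l) were below 0.05 before adjustment. Noc2l, which pairs with Noc3l in 60S assembly, had 8.73, 7.84, 9.02 and 8.95 and rose by 1.15 over IgG (2.22-fold, SE 0.12, limma adjusted p = 0.0039). Noc3l had 6.85 in input, 5.66 in IgG and 6.23 on both IP arrays. It rose by 0.57 over IgG and was -0.62 from input (limma adjusted p = 0.0671).

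Bop1, Pes1 and Wdr12 form the PeBoW complex, which is needed for processing of the large subunit RNA. Bop1 rose by 0.76, Wdr12 by 0.74 and Pes1 by 0.42 over IgG (limma adjusted p = 0.01, 0.0251 and 0.0435), and against input they differed by -0.14, 0.00 and -0.08. Wdr12 had the same value, 5.60, on input and both IP arrays, with 4.86 on IgG. After quantile normalization again, the difference of Pes1 from IgG turned to -0.30 (limma adjusted p = 0.0823) and that of Bop1 was 0.10 (limma adjusted p = 0.453).

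Nop2, a methyltransferase of the large subunit RNA, had 7.27, 6.46, 6.96 and 6.96, and its difference of 0.49 from IgG did not pass (limma adjusted p = 0.0591). Rrp1 had 8.44, 7.55, 7.86 and 7.95 (0.35 from IgG, limma adjusted p = 0.0755, and -0.54 from input, limma adjusted p = 0.0502). Nop16 (Entrez 28126) was below both controls in the IP, with 6.06 in input, 5.61 in IgG, and 5.48 and 5.11 in the IP. Its differences of -0.32 and -0.76 did not pass (SE 0.20, limma adjusted p = 0.247 and 0.0645), and its IP replicates were 0.36 apart, the widest gap among the members.

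**Figure D2:**
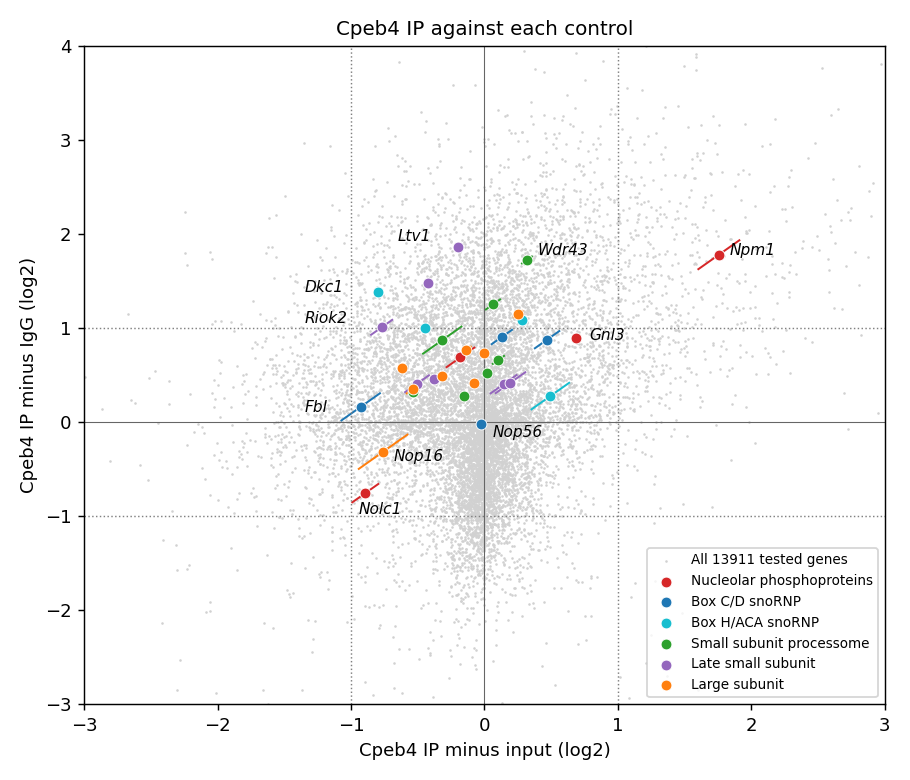
Mean difference of the IP from input (horizontal) and from IgG (vertical) on the log2 scale, for the 34 assembly factors coloured by role and for all 13911 tested genes in grey; genes beyond the axes are not drawn. Lines through the points join the 2 IP replicates, dotted lines mark 2-fold, and both axes share the IP arrays. Most members lie above the horizontal zero line and around the vertical one, with Npm1 at 1.76 and 1.78 and Nolc1 at -0.89 and -0.76.

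The IP replicates were close for these genes. Their largest gap was 0.36, the median gap 0.08, and the SD of the replicate difference 0.16, against 0.22 over all tested genes. In 8 members (23.5%, against 21.8% of all tested genes) both IP arrays held exactly the same value: Dkc1, Ltv1, Nob1, Noc3l, Nop2, Utp3, Wdr12 and Wdr75. Equal values can arise when probes are summarised across arrays and are not a measure of spread. Such genes were given the spread of the other genes in the test.

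The IgG precipitate itself held less of these mRNAs than input on the deposited scale. IgG was lower than input for 32 of 34 members (94.1%, against 54.7% of all tested genes), equal for Nop56 and higher for Gar1. The median of IgG minus input was -0.83, where all tested genes had -0.15, and the range ran from -2.18 for Dkc1 to 0.22 for Gar1. At least 2-fold lower in IgG were 10 members (29.4%, against 23.9%), and 0 were at least 2-fold higher (against 7.93%). Of the genes at or above the 60th percentile of level, 34.4% were at least 2-fold lower in IgG, with a median difference of -0.61. This comparison has 1 array a group and was described by size only.

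The narrow range of the IgG array moved with that shift, and its part in the shift was not tested. Ranked within each array among all 25206 probe sets, the members' median percentile was 84.9 on input, 84.8 on IgG, and 84.1 and 83.9 on the IP replicates, a spread of about 1 point. Single members differed more in rank. Ltv1 was at the 86.2 percentile in input, 70.1 in IgG, and 86.0 and 85.8 in the IP, Riok1 at 83.2, 66.9, 81.0 and 80.8, and Npm1 at 83.5, 90.4, 95.5 and 96.7. Npm1 thus ranked higher in IgG than in input while its log2 values there were nearly equal. Nolc1 ranked at 80.9, 87.1, 74.8 and 72.4.

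Rescaling the arrays changed how many members stood above IgG. After quantile normalization of the 4 arrays again, the members' median difference from IgG was 0.16 and 12 of 34 lay below 0. By limma 11 then rose (32.4%, against 25.5% of all tested genes) and 2 fell, Nolc1 and Nop56 (5.88%, against 24.7%). All 11 were among the 21 that rose as deposited: Dkc1, Ltv1, Nhp2, Noc2l, Nop14, Npm1, Riok1, Riok2, Rrp9, Wdr12 and Wdr43. Of the 8 that were 2-fold higher by size as deposited, 4 stayed so (Ltv1, Nop14, Riok1 and Wdr43), which is 11.8% of the members against 12.8% of all tested genes. Npm1 was 0.92 and 1.23 above IgG in the 2 replicates and 1.76 and 2.07 above input. Centring each array on its median moved the other way, with a median member difference from IgG of 1.00. It moved the median of all tested genes from 0.08 to 0.41.

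**Figure D3:**
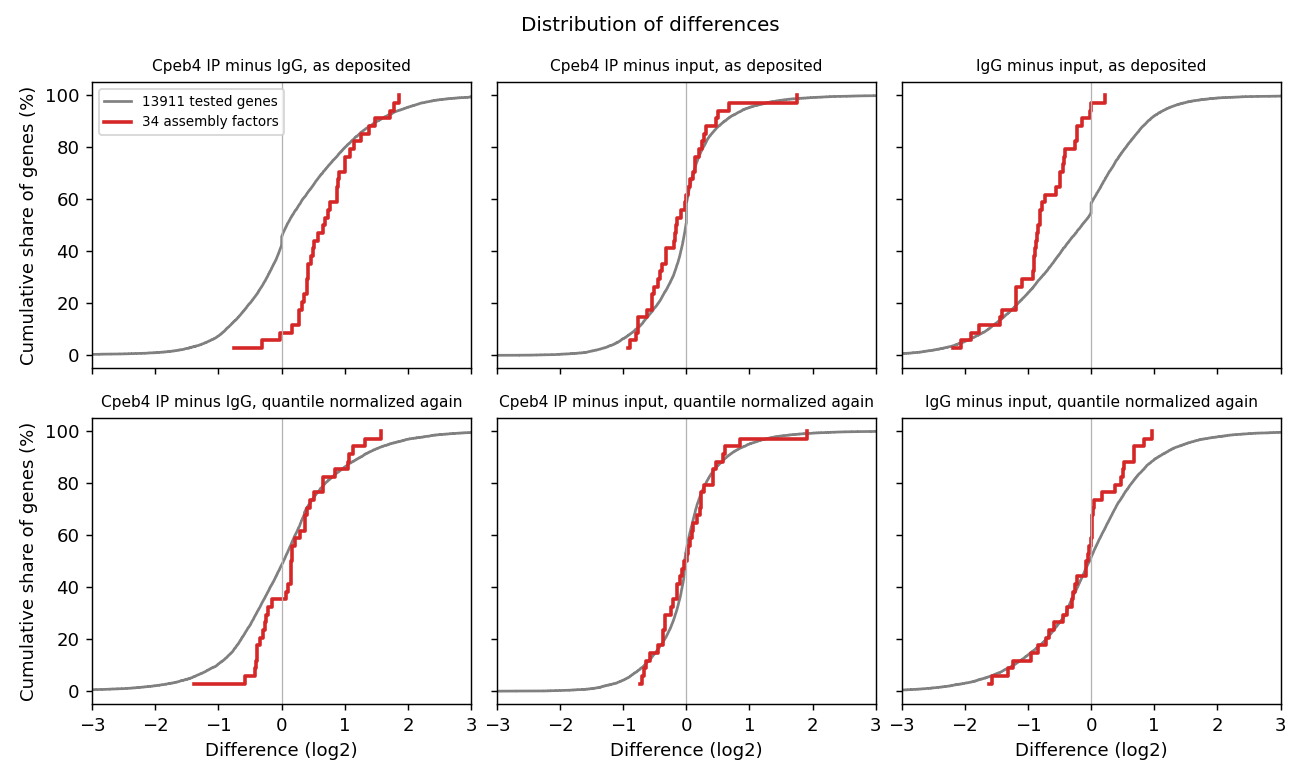
Cumulative share of genes by difference (log2) for the 34 assembly factors (red) and all 13911 tested genes (grey), with values as deposited in the upper panels and after quantile normalization again in the lower ones. As deposited, the red line lies to the right for IP minus IgG (median 0.68 against 0.08) and to the left for IgG minus input (-0.83 against -0.15). After renormalization both lines are close in the middle, with member medians of 0.16 and -0.063.

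Some of these genes carry small nucleolar RNAs in their introns, so that a host mRNA and a guide RNA come from 1 transcript. By position in the RefSeq gene table, 11 small nucleolar RNA genes with a probe set lay within 6 members: Nop56, Nop58, Ncl, Gnl3, Wdr43 and Tsr1. The table gives no strand, so strand was not checked. All 11 were lower in both IP replicates than in IgG. Of the 7 that reached the level for testing all 7 fell (against 19.7% of all tested genes). Each was at least 2-fold lower in both replicates (against 6.24%). Of the 6 hosts, 5 had a positive mean difference from IgG, Nop56 being the exception at -0.02.

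The gap between host and small nucleolar RNA in their differences from IgG was widest for Wdr43 with Snord53 (5.32), followed by Nop56 with Snord110 (4.93), Nop58 with Snord11 (4.78) and Gnl3 with Snord69 (4.76). Snord69, within Gnl3, was at 7.42 in input, 11.94 in IgG and 8.07 on both IP arrays, so IgG stood alone. It fell by 3.87 on the log2 scale against IgG (limma adjusted p = 0.00185), where Gnl3 rose by 0.90. Snord53, within Wdr43, was at 8.65 in input, 10.50 in IgG, and 6.95 and 6.84 in the IP. It fell by 3.60 against IgG and by 1.76 against input (limma adjusted p = 0.00173 and 0.00952), while Wdr43 differed by 1.72 and 0.32.

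Snord11, within Nop58, was at 6.27, 9.13, 5.01 and 5.44 for input, IgG and IP replicates 1 and 2, and fell by 3.90 against IgG and by 1.04 against input (limma adjusted p = 0.00175 and 0.0418). Snord110, within Nop56, was at 5.225, 8.605, 4.0045 and 3.3005, and fell by 4.95 and by 1.57 (limma adjusted p = 0.00192 and 0.0395). Snord57, also within Nop56, fell by 1.77 against IgG and was 0.13 from input. Within Ncl, Snora75 and Snord82 fell by 3.50 and 2.93 against IgG and differed by -0.19 and -0.39 from input without passing.

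IgG exceeded input at least 2-fold for all 7 tested small nucleolar RNAs (against 7.93% of all tested genes). The differences ran from 1.84 (Snord53) to 4.51 (Snord69) on the log2 scale, while their 5 hosts differed by -1.41 to 0.00. Snord19, Snord70, Snord91a and Snord92 had values from 1.99 to 3.74 on all arrays and were not tested. Whether the probe sets also measured host precursor RNA was not tested.

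**Figure D4:**
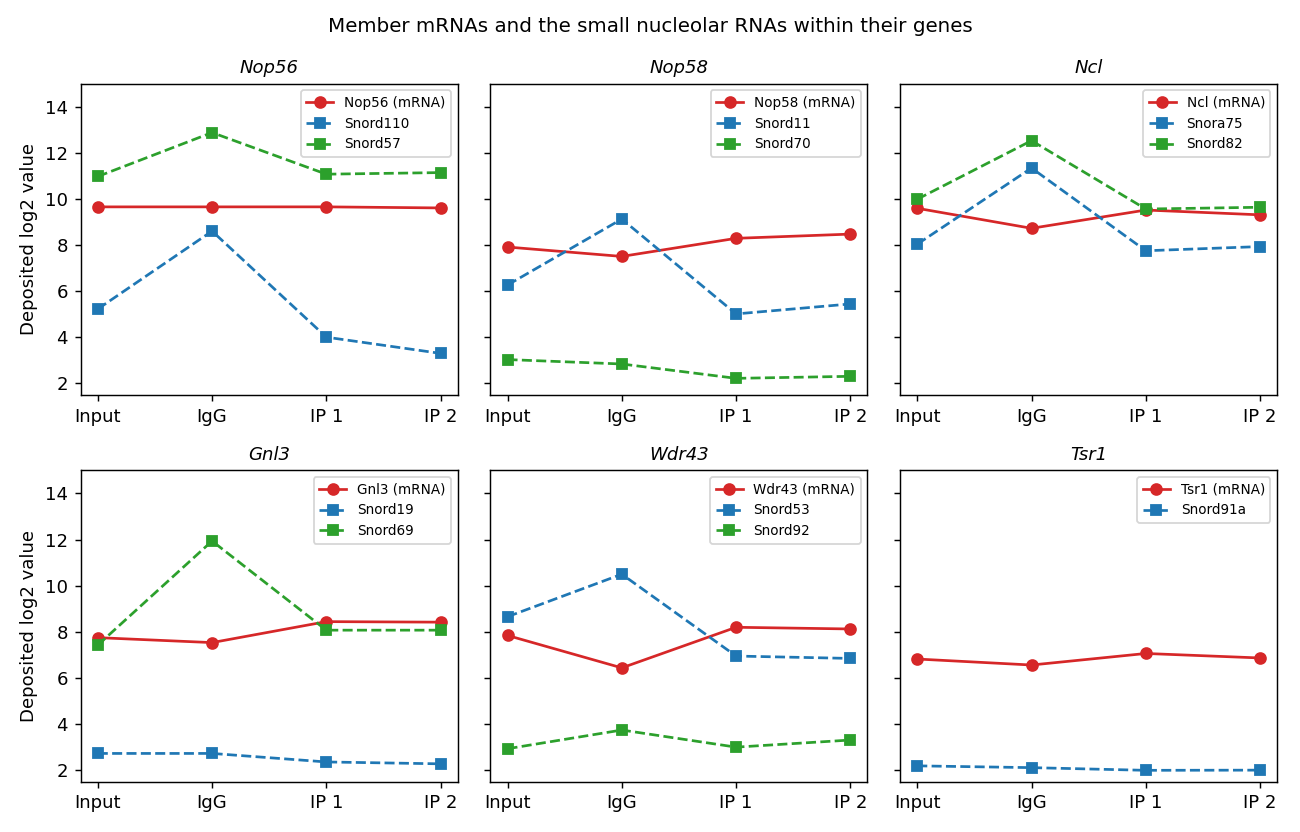
Deposited log2 values on the 4 arrays for 6 member mRNAs (red circles) and the small nucleolar RNAs within their genes (blue and green squares); each point is 1 array, and lines only join the points of a gene. The 7 tested small nucleolar RNAs peak on the IgG array, between 8.60 and 12.88, and the host mRNAs do not.

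Sequence at the members' promoters was examined for the E-box CACGTG, which Myc and related factors bind. Assembly factors are textbook targets of Myc, and these arrays measured precipitated RNA, not transcription. Of the 34 members 30 matched a promoter in the RefSeq table (GRCm38.p6; 250 bases before to 50 after the start of the gene). The motif reads the same on both strands. It occurred in 6 of 30 (20%), against 8.09% of 27025 genes with a promoter and 11.5% of the 10840 tested genes with one. The stretches around it are shown 5′ to 3′ on the gene's strand, with the motif in capitals, because Ltv1, Wdr43 and Tsr1 are among the members described above.
Ltv1: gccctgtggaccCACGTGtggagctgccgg
Wdr43: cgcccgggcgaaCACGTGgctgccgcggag
Tsr1: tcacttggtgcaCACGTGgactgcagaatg
Pes1: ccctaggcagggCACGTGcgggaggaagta
Nop2: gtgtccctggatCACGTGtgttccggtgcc
Utp20: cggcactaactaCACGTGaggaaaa

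These stretches are chr10:13193092-13193121 (minus strand) for Ltv1, chr17:71616220-71616249 (plus) for Wdr43, chr11:74898092-74898121 (plus) for Tsr1, chr11:3963965-3963994 (plus) for Pes1, chr6:125131811-125131840 (plus) for Nop2 and chr10:88826765-88826789 (minus) for Utp20. The motif began 29, 18, 25, 3 and 38 bases into the transcribed part for Ltv1, Wdr43, Tsr1, Pes1 and Utp20, and at position -60 for Nop2. The 6 genes with the motif had a median difference of 0.51 from IgG and -0.030 from input, and the 24 without it 0.71 and -0.25, with overlapping ranges.

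Other genes of ribosome production were described beside the 34. Of 88 further factors, among them RNA polymerase I, exosome and processome genes, all 88 were tested. Against IgG 55 rose (62.5%, against 35.0% of all tested genes) and 2 fell (2.27%, against 19.7%), and 30 were 2-fold higher by size (34.1%, against 18.6%). Of the genes at or above the 60th percentile of level, 52.2% rose against IgG and 27.0% were 2-fold higher. The 88 factors had a median difference of 0.76 from IgG and -0.12 from input, and IgG minus input had a median of -0.96. Against input 2 rose (2.27%, against 9.38%) and 19 fell (21.6%, against 13.8%), and 0 were at least 2-fold above both controls (against 2.49%).

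The highest of them over IgG were Brix1, a 60S assembly factor, with a rise of 2.42, and Rrn3, an initiation factor of RNA polymerase I, with 2.12. The lowest were Rrp7a, which fell by 1.495, and Taf1c, which fell by 0.50. Against input, Mdn1, the large AAA ATPase of 60S maturation, rose by 0.89 and Rrp7a by 0.65, while Eif6 fell by 1.49 and Rpf1 by 1.28.

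Cytosolic ribosomal protein genes, the cargo of this machinery, had medians near 0 against both controls. Of 59 with a probe set 46 were tested, with a median difference of 0.07 from IgG and -0.07 from input. Against IgG 16 rose (34.8%, against 35.0% of all tested genes) and 10 fell (21.7%, against 19.7%), shares close to the background, with extremes of 3.53 for Rpl27a and 2.29 for Rpl23 upward and -2.31 for Rps13 and -1.52 for Rpl39l downward. Against input 7 rose (15.2%, against 9.38%) and 5 fell (10.9%, against 13.8%), with Rpl15 up by 2.15, Rpl23 up by 1.64 and Rpl29 at -1.52, while Rps13 at -1.29 did not pass. Ribosomal protein genes have many processed pseudogenes, so probe sets can pick up related copies.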

How the data were processed

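RNA was measured on 4 Affymetrix arrays. The authors deposited a log2 value for each probe set on each array. Per the submitters' processing notes the tools were RMA and affy, while probe definition, genome build and filters are not given in the sources used here. Probe sets are Entrez gene numbers: of 25206, 23185 had 1 symbol in the array's annotation table, 0 several and 2021 none.

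Groups came from the sample titles. Differences were fitted with limma 3.58.1 in R 4.3.3 (lmFit, eBayes, 3 groups). Genes equal on both IP arrays (3032 of 13911, within 1e-09) were given 0 residual degrees of freedom and took the prior spread (SD 0.110, with 3.07 degrees of freedom). This handling was tried on simulated data, since ties kept at a spread of 0 would count as exact measurements. It called 6 of 13711 unchanged genes, against 1739 with ties kept. Of 50 changed genes at each fold it recovered 36 at 2-fold and 9 at 1.5-fold. All simulated arrays had 1 common spread, so the simulation could not check the assumption about the controls or the narrow IgG range.

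All members were named; values on every array were given for at least the 5 highest and 5 lowest per control and those 2-fold from both. Alternatives changed the filter on low values, the scaling of arrays, the fold, the estimate of spread, the p threshold, the use of the controls and the IP replicates kept. Of other lists the 2 highest and 2 lowest per control were named. Members and lists were chosen with earlier results of these data known. Cpeb4 binding elements were not analysed here, since no transcript sequences were used. The number of arrays limits the precision.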

Additional observations from a re-analysis of the deposited data

How the results depend on the processing

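No paired analysis was possible because only the IP group has more than 1 array and no number is shared between groups. Shares in parentheses are those of all tested genes under the same setting. With 1 IgG and 1 input array, all tests rest on the assumption that a control varies like the IP replicates; fitted as 1 control group, limma called 0 members and 0 genes in either direction (3 members, Gnl3, Nolc1 and Npm1, and 1112 genes at an unadjusted p under 0.05). Quantile normalization again gave, against IgG, 4 members at least 2-fold higher (12.8%) and 1 lower (9.33%), 11 that rose (25.5%) and 2 that fell (24.7%), and a median of 0.16. Against input it gave 0 that fell by limma (8.23%; 8 members lower at an unadjusted p under 0.05) and a median of -0.014, and 0 members were 2-fold above both controls (2.31%). In IgG minus input it gave 4 members 2-fold lower (13.9%) and a median of -0.063. Pes1 against IgG reversed there, to -0.30.

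Centring arrays on their medians gave 16 members 2-fold above IgG (27.3%), 0 that fell by limma (1395 of 13911 genes did; 0 members at an unadjusted p under 0.05), a median of 1.00 from IgG and -0.18 from input, and in IgG minus input 21 members 2-fold lower (34.3%) with a median of -1.18. At 1.5-fold, 17 members were above (30.0%) and 1 below IgG (15.6%), 2 above (8.81%) and 5 below input (13.8%), 2 above (5.95%) and 1 below both (1.57%), and 21 lower in IgG than in input (36.2%). At 4-fold, 0 were above IgG (4.13%), input (0.733%) or both (0.309%), and 2 were lower in IgG than in input (5.38%). Against input, 10 members fell with the 60th percentile filter (24.6%), 9 with plain eBayes (13.3%) and 11 with the common spread (20.7%). Of the 4 that fell against input as deposited, only Dkc1 did so with plain eBayes, while Fbl, Nolc1 and Riok2 did not pass. The plain eBayes calls included Dkc1, Ltv1, Nob1, Noc3l, Nop2, Utp3 and Wdr75, whose tied IP values were kept at a spread of 0. With trend 10 fell against input (19.0%), and 11 did at an adjusted p below 0.1 (19.5%). Against input 1, Gnl3, rose with plain eBayes (9.39%) and 4 with the common spread (13.3%). Plain eBayes had 0 members that fell against IgG (17.2%; 0 also at an unadjusted p under 0.05).

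Without 1 IP replicate, 9 to 10 members were 2-fold above IgG (median 0.60 to 0.71), 1 above input and 0 to 1, Fbl, below it (median -0.13 to -0.12), and 1 above both. Of the members called by limma as deposited, no other changed direction in these alternatives. Some called only in an alternative did differ in direction between settings. Against IgG, Rrp1 rose by 0.68 with arrays centred on their medians and was at -0.38 after quantile normalization again. Nop56 fell by 0.42 after quantile normalization again and was at 0.30 with centring. Why these values moved was not tested.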
